A study of Mus musculus with 12 samples.

Results

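Fatty acid beta-oxidation in mitochondria was followed through 10 genes: Cpt1a, Cpt1b, Slc25a20, Cpt2, Acadvl, Acadl, Acadm, Hadha, Hadhb and Acaa2. They were chosen by name as the carriers and enzymes that take a long-chain fatty acid into the mitochondrion and shorten it. Each matched 1 of the 55414 genes in the table of expected read counts, and all 10 were among the 15912 genes tested between the operations. Expression was measured by poly-A RNA sequencing of the inferior vena cava (IVC) of wild-type C57BL/6 mice aged 10 weeks. In 6 mice an infrarenal aortocaval fistula had been made by puncture with a needle (AVF), and 6 mice had a sham operation. The IVC was taken on postoperative day 7, from just above the fistula to below the left renal vein in AVF mice. Each group held 3 female and 3 male mice, with 1 library per mouse. Libraries are named here by operation, sex and replicate number. The study split AVF into nAVF (male 1, male 3, female 1 and female 3) and OUT (male 2 and female 2). That split appears in its text and not in the sample labels, and it was made on the expression of these same libraries, so p values for nAVF and OUT do not account for it.

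Beta-oxidation is the pathway by which mitochondria break fatty acids down to acetyl-CoA, with electrons passed on to the respiratory chain. Long-chain acyl groups first cross the mitochondrial membranes as carnitine esters, and a cycle of dehydrogenation, hydration, dehydrogenation and thiolysis then removes carbon pairs. Heart muscle, brown fat and liver are known for high rates, while in a vein wall the pathway can draw on several cell types.

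The libraries held 15177881 to 22717423 counts, and 3 counts, the least taken as detected, corresponded to 0.127 to 0.323 normalized CPM (reads of a gene relative to the TMM-scaled depth of its library). The lowest count of any of the 10 genes in a library was 77.3, for Cpt1b in female AVF 1. Within groups of 1 operation and sex, the chi-square per degree of freedom was 41.3 to 677 over 12 pairs of libraries, so mice differed by more than counting error. Several libraries stood apart. In female AVF 1, 46.0% of the counts came from rRNA genes, against 2.39% to 12.6% elsewhere. Striated muscle markers summed to 1030 CPM in female sham 1, which held the heart myosin Myh6 at 408 CPM, and to 1541 CPM in female sham 3, against 61.4 to 135 CPM in the other libraries. The hepatocyte marker Alb was at 1850 and 5585 CPM in the OUT libraries, and at 0.127 to 2.67 CPM in the rest. The markers of the vein wall were present in each library, with Myh11 (smooth muscle) at 564 to 1782 CPM and Pecam1 (endothelium) at 569 to 1089 CPM.

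Expression of 4 of the 10 genes was lower in AVF than in sham, and that of none was higher. Cpt1b, Acaa2, Hadhb and Acadvl fell, each by at least 2-fold, with an adjusted p value under 0.05 in edgeR's quasi-likelihood test over all 15912 genes. Of all tested genes, 5.13% were lower by this rule, 1.4% were lower and at least 2-fold changed, and 8.63% were higher. Over the 10 genes the median log2 fold change was -1.03, and over all tested genes it was -0.01. Log2 fold changes of 9 of the 10 were negative, and Cpt1a was the exception. Acadvl and Hadhb were no longer called, and the count was 2, when any of 8 libraries was left out: male AVF 2, male AVF 3, female AVF 1, female AVF 3, male sham 1 and each of the 3 female shams. The count was 8 without male sham 2, 7 without female AVF 2 and 6 without male sham 3. The exact test of edgeR, which the study used, and the Wald test of DESeq2 each called 8, adding Slc25a20, Acadm, Acadl and Hadha. Over all genes, in either direction, calls numbered 2190 in the main test, 2006 in the exact test and 3402 in DESeq2. With each of those 8 libraries left out, calls over all genes numbered 1330 to 2546, above 2190 only without female AVF 1. Without male sham 2, female AVF 2 or male sham 3 they numbered 1917, 1928 and 2083.

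**Figure D1:**
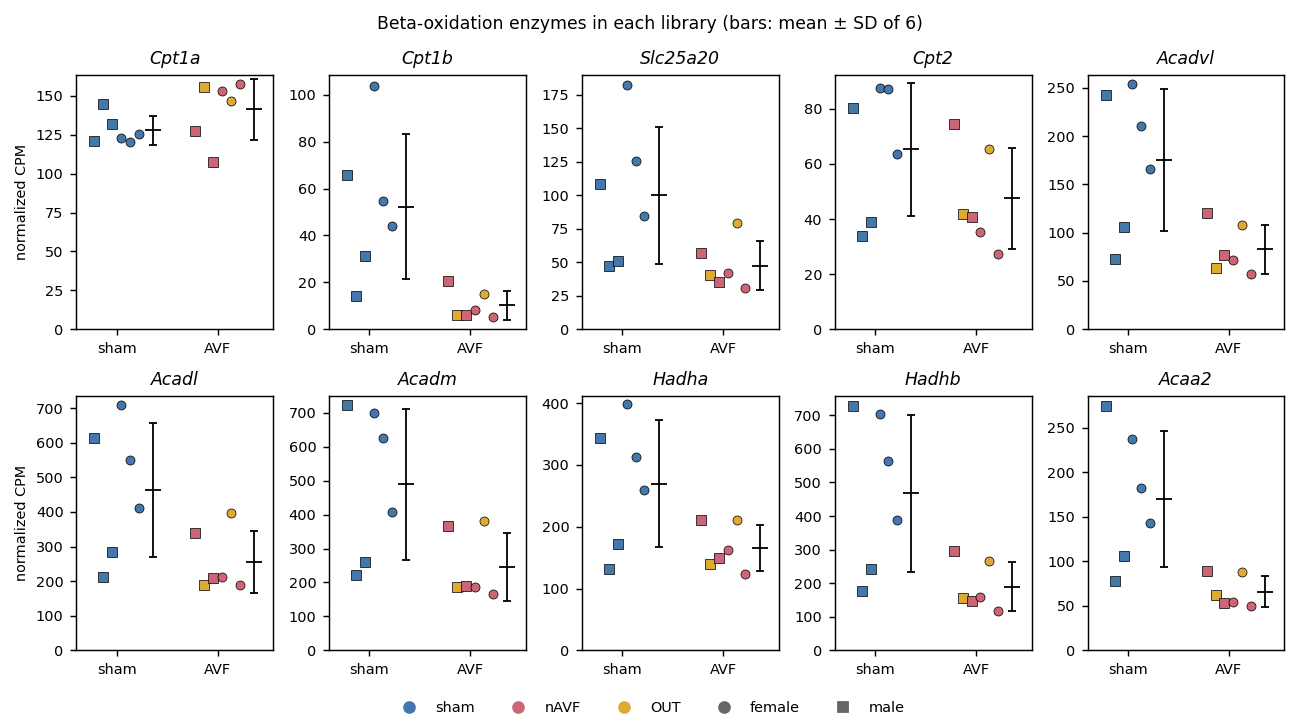
Normalized CPM (vertical axes, from 0) of the 10 genes in each of the 12 libraries, with sham in blue, nAVF in red, OUT in yellow, circles for female and squares for male mice, and bars for the mean and SD of the 6 libraries of each operation. Cpt1a was level, from 108 to 158 CPM over the 12 libraries, while Cpt1b was at 14.4 to 104 CPM in sham and 5.15 to 20.5 CPM in AVF, and male sham 2 and 3 lay near the AVF libraries in most panels.

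The first step is carried out by carnitine palmitoyltransferase 1, which joins the acyl group to carnitine at the outer membrane. Cpt1a encodes its liver type and Cpt1b its muscle type, which brown adipocytes also express. Cpt1b (ENSMUSG00000078937, GRCm39 15:89300606-89310239, minus strand) ranged in sham from 14.4 through a median of 49.3 to 104 CPM, and in AVF from 5.15 through 7.25 to 20.5 CPM. In 5 of the 6 shams Cpt1b was above every AVF library, and only male sham 2 fell into the AVF range. Its mean was 52.2 ± 30.9 CPM in sham and 10.2 ± 6.19 CPM in AVF (SD, n = 6 each), a fitted fall of 5.10-fold (log2 fold change -2.35, SE 0.47, adjusted p = 0.00788). It had the most negative log2 fold change of the 10 genes.

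Cpt1a (ENSMUSG00000024900, 19:3371853-3437996, plus strand) ranged from 121 through a median of 124 to 145 CPM in sham and from 108 through 150 to 158 CPM in AVF. The AVF values surrounded the sham values. The log2 fold change was 0.14 (SE 0.10, adjusted p = 0.332) with a 95% interval of -0.07 to 0.35.

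The isoforms were compared per kilobase of transcript, since Cpt1a has 6594 and Cpt1b 3054 exonic bases in the canonical transcripts of GENCODE. In sham, Cpt1a was at 19.4 ± 1.41 and Cpt1b at 17.1 ± 10.1 CPM per kilobase (SD, n = 6), and Cpt1a was the higher of the pair in 4 of 6 libraries. In AVF, Cpt1a was at 21.4 ± 3.00 and Cpt1b at 3.35 ± 2.03 CPM per kilobase (SD, n = 6), and Cpt1a was the higher in each library. The ratio of Cpt1b to Cpt1a per kilobase was 0.214 to 1.82 in sham and 0.0706 to 0.347 in AVF. The mean log2 ratio was -0.42 in sham and -2.86 in AVF (p = 0.00649, adjusted p = 0.0108 over 5 ratios, 2-sided exact permutation test).

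**Figure D2:**
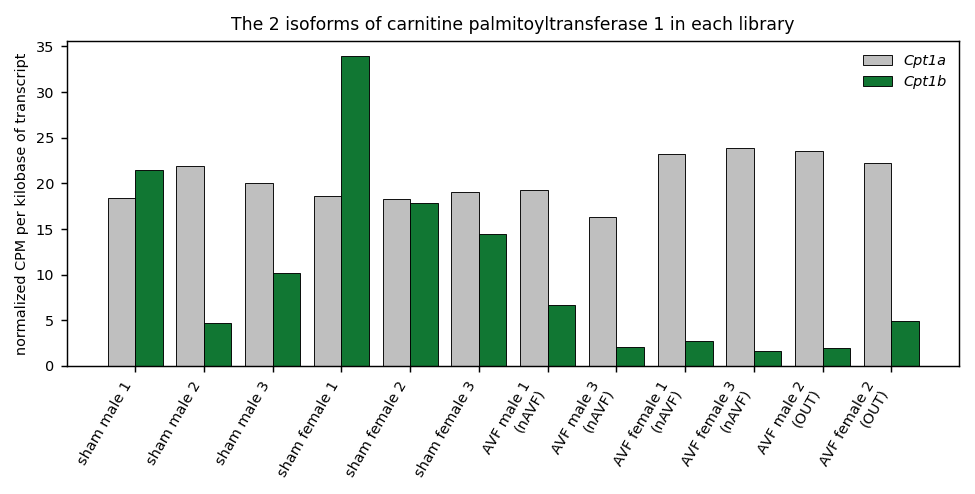
Normalized CPM per kilobase of transcript (vertical axis, from 0) of Cpt1a (grey bars) and Cpt1b (green bars) in each of the 12 libraries. Cpt1b exceeded Cpt1a in male sham 1 and female sham 1, where the ratio was 1.17 and 1.82, and was below it in the other 10 libraries.

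To show what the diverging isoforms carry before their starts, the 250 bases upstream of each canonical transcript start are given 5′ to 3′ on the gene's strand. They were read from GRCm39 at 19:3373021-3373270 for Cpt1a and at 15:89310226-89310475, minus strand, for Cpt1b, whose last 14 bases before the start lie in the exon of a longer transcript. The Cpt1a window lies within the annotated span of its gene, which begins at 19:3371853. Capitals mark the nuclear receptor half-site AGGTCA, searched on both strands, which reads TGACCT on the other strand.
Cpt1a: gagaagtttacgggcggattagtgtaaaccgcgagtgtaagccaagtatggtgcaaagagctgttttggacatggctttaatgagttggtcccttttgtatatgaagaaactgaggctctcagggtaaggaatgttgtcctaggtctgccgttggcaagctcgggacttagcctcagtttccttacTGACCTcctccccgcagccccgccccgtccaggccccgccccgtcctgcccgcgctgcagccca
Cpt1b: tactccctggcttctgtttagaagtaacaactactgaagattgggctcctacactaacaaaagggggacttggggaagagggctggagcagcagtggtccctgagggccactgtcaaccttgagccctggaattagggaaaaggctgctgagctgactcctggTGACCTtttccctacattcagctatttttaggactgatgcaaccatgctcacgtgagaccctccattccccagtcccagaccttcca
Each window held 1 half-site, with its first base at -64 in Cpt1a and at -87 in Cpt1b. Of the 10 genes, 4 held the half-site in this window (Cpt1a, Cpt1b, Acadvl and Hadha), and so did 13.1% of the 21770 protein-coding promoters searched. The Cpt1a window had 13 CpG and 3 copies of GGGCGG (the core bound by SP1, either strand), and the Cpt1b window 1 CpG and no copy. GGGCGG was found in 6 of the 10 genes and in 36.3% of promoters. Neither AGGTCANAGGTCA, a half-site repeat with 1 base between, nor TNAAGGTCA, both of which contain the half-site, nor the NRF1 core was found in any of the 10 windows; they were in 0.04%, 1.09% and 0.67% of promoters.

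The acylcarnitine is carried through the inner membrane by the product of Slc25a20, and Cpt2 returns the acyl group to CoA inside. Slc25a20 (ENSMUSG00000032602, 9:108539250-108562760, plus strand) ranged from 47.5 through a median of 96.5 to 182 CPM in sham and from 30.6 through 41.3 to 79.6 CPM in AVF. Of the 6 shams, 4 were above every AVF library, and 4 AVF libraries were below every sham. The log2 fold change was -1.07 (SE 0.34), and its adjusted p of 0.0504 missed the threshold. Cpt2 (ENSMUSG00000028607, 4:107751473-107780812, minus strand) ranged from 33.8 through 71.9 to 87.7 CPM in sham and from 27.3 through 41.3 to 74.3 CPM in AVF. The groups overlapped broadly and Cpt2 had a log2 fold change of -0.46 (SE 0.29, adjusted p = 0.309). The ratio of Cpt2 to Slc25a20 per kilobase separated the operations without overlap, at 0.361 to 0.576 in sham and 0.617 to 0.985 in AVF (mean log2 ratios -0.97 and -0.42, p = 0.00216, adjusted p = 0.0108, 2-sided exact permutation test). That p is the smallest this design can give. On the opposite strand Czib overlaps the span of Cpt2 and was at 14.8 to 20.4 CPM, and the counting was specific to the strand.

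Acyl-CoA dehydrogenases open each round of the cycle, for very long (Acadvl), long (Acadl) and medium (Acadm) chains. Acadvl (ENSMUSG00000018574, 11:69900853-69906270, minus strand) ranged from 72.7 through a median of 188 to 254 CPM in sham and from 57.7 through 74.2 to 120 CPM in AVF, and 4 shams were above every AVF library. Its mean was 175 ± 74.0 CPM in sham and 83.0 ± 25.3 CPM in AVF (SD, n = 6 each), a log2 fold change of -1.08 (SE 0.30, adjusted p = 0.0324). Acadvl thus fell by 2.11-fold, with the call resting on the libraries named above.

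Acadl (ENSMUSG00000026003, 1:66868267-66902633, minus strand) ranged from 211 through a median of 480 to 709 CPM in sham and from 189 through 210 to 396 CPM in AVF. Acadm (ENSMUSG00000062908, 3:153627989-153650317, minus strand) ranged from 221 through 517 to 722 CPM in sham and from 167 through 188 to 381 CPM in AVF. For both, 4 shams exceeded each AVF library, and male AVF 1 and female AVF 2 were the highest of the AVF libraries. Neither passed the test, with log2 fold changes of -0.86 (SE 0.30, adjusted p = 0.0734) for Acadl and -0.99 (SE 0.33, adjusted p = 0.0661) for Acadm. The ratio of Acadm to Acadl was 1.11 to 1.43 per kilobase in sham and 1.07 to 1.31 in AVF (adjusted p = 0.0952, 2-sided exact permutation test), and passed the threshold in 2 of 13 alternatives, without male AVF 1 (adjusted p = 0.0260, exact permutation test) and without male sham 3. That of Acadvl to Acadl was 0.425 ± 0.0251 in sham and 0.373 ± 0.0398 in AVF (SD, n = 6; adjusted p = 0.0216, 2-sided exact permutation test). Without both OUT libraries the adjusted p of this ratio was 0.0833, and the difference in mean log2 ratio was -0.14 against -0.20 with all libraries.

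Hadha and Hadhb encode the subunits of the mitochondrial trifunctional protein, which hydrates, dehydrogenates and thiolyses long-chain intermediates. The genes lie head to head on chromosome 5 (Hadha, ENSMUSG00000025745, 5:30323302-30360187, minus strand; Hadhb, ENSMUSG00000059447, 5:30359204-30389997, plus strand), and 64 bases part their canonical starts. Those bases are shown because a single stretch precedes both canonical starts. The stretch lies within the annotated span of Hadhb, and the spans of the genes overlap by 984 bases. Read on the plus strand of GRCm39 at 5:30360182-30360245, with the GGGCGG core in capitals, they are:
Hadha and Hadhb: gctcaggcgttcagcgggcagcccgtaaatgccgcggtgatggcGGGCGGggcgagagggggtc
Of these bases 73.4% are G or C. Outermost bases of the stretch lie in exons of longer transcripts of either gene.

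Hadhb ranged from 176 through a median of 477 to 728 CPM in sham and from 116 through 157 to 295 CPM in AVF. Hadha ranged from 132 through 286 to 398 CPM in sham and from 124 through 156 to 211 CPM in AVF. In both genes 4 shams were above every AVF library, and male sham 2 was the lowest sham. Hadhb fell by 2.46-fold (log2 fold change -1.30, SE 0.36, adjusted p = 0.0315), from 468 ± 234 to 190 ± 72.4 CPM (SD, n = 6 each). Hadha had a log2 fold change of -0.70 (SE 0.25) and did not pass the test (adjusted p = 0.0769). Although the products form 1 complex, RNA of the subunits was not in constant proportion: the ratio of Hadhb to Hadha per kilobase was 3.29 ± 0.587 in sham and 2.21 ± 0.362 in AVF (SD, n = 6; p = 0.00433, adjusted p = 0.0108, 2-sided exact permutation test). Ranges of this ratio met between 2.65, the lowest sham, and 2.78, the highest AVF. Expected counts of Hadhb were not whole in the table, since RSEM shares out reads that match more than 1 place.

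Acaa2 (ENSMUSG00000036880) encodes the mitochondrial thiolase that releases acetyl-CoA from shorter chains. It ranged from 77.6 through a median of 162 to 275 CPM in sham and from 49.9 through 58.4 to 88.6 CPM in AVF. In 5 of 6 shams Acaa2 was above every AVF library, and male sham 2 was again inside the AVF range. The mean was 170 ± 76.2 CPM in sham and 66.0 ± 17.6 CPM in AVF (SD, n = 6 each), a log2 fold change of -1.37 (SE 0.29, adjusted p = 0.0108). Together with Cpt1b it was called in each of the alternative tests and with any 1 library left out. None of the 10 genes separated the groups without overlap, and over all tested genes 1.51% had each AVF value below each sham value.

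Ordered by mean CPM per kilobase in sham, Acadm (238 ± 108), Hadhb (230 ± 115) and Acadl (185 ± 77.8) led, followed by Acaa2 (97.1 ± 43.5), Acadvl (79.3 ± 33.5), Hadha (66.8 ± 25.3), Slc25a20 (56.0 ± 28.6), Cpt2 (27.4 ± 10.1), Cpt1a (19.4 ± 1.41) and Cpt1b (17.1 ± 10.1; SD, n = 6 for each). Neighbours that changed places between sham libraries were Acadm and Hadhb (Acadm higher in 4 of 6), Hadha and Slc25a20 (5 of 6), Cpt2 and Cpt1a (4 of 6) and Cpt1a and Cpt1b (4 of 6). The other neighbours kept their order in 6 of 6 shams although their SDs overlapped. In AVF the order was Acadm, Acadl, Hadhb, Hadha, Acaa2, Acadvl, Slc25a20, Cpt1a, Cpt2 and Cpt1b, and neighbours changed places between libraries from Acadl to Acadvl and from Slc25a20 to Cpt2, except Hadhb and Hadha. By group means the cycle enzymes stood above Slc25a20, Cpt2, Cpt1a and Cpt1b in both operations, and Cpt1b was last in both. In female sham 1, Slc25a20 (102 CPM per kilobase) was above Hadha (98.7 CPM per kilobase).

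The spread among shams was wide and shared. From the lowest to the highest sham, the levels differed by 7.22 times for Cpt1b, 4.13 times for Hadhb and 2.59 times for Cpt2, but by 1.20 times for Cpt1a. Within sham, the 36 pairs among the 9 genes other than Cpt1a had Pearson's r of 0.887 to 0.997 on log2 CPM, and within AVF of 0.846 to 0.986, over 6 libraries each. Cpt1a ran the other way within sham, with r of -0.960 to -0.838 with the other 9, and of -0.397 to 0.0313 within AVF. These values describe libraries that share depth and tissue composition. Male sham 2 was the lowest sham for each of the 9 genes, and male sham 3 was next.

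Brown adipocyte markers, taken as a mean of log2 CPM, moved with the 9 genes. No relation of their sum to the genes was computed. That sum was 347 CPM in female AVF 1 and 343 CPM in male AVF 1, where Cpt2 was at 35.4 and 74.3 CPM. Prdm16, on the same list, ran the other way among shams. It was at 20.6 CPM in male sham 2 and 19.7 CPM in male sham 3, against 17.1 CPM in female sham 1. Ucp1, the uncoupling protein that defines brown adipocytes, ranged from 22.9 CPM in male sham 2 to 1088 CPM in female sham 1, and in AVF from 1.69 CPM in female AVF 3 to 121 CPM in female AVF 2. The 9 listed markers summed to 212, 881 and 1995 CPM (lowest, median and highest) in sham and to 90.7, 263 and 391 CPM in AVF. Of the 9, 6 were lower in AVF by the adjusted test and none was higher, with a median log2 fold change of -1.99. Of all tested genes, 5.13% were called lower. Ucp1 itself did not pass (log2 fold change -2.83, adjusted p = 0.0790). Of the markers shared with white adipocytes 0 of 8 passed, and Adipoq was at 271 to 531 CPM in sham and 264 to 573 CPM in AVF. Their sum nevertheless differed between libraries of the same operation. In sham it was lowest in male sham 3 (1822 CPM) and male sham 2 (1887 CPM) and highest in female sham 2 (3475 CPM) and female sham 1 (3458 CPM). In AVF it was highest in male AVF 1 (3912 CPM) and female AVF 2 (3549 CPM) and lowest in female AVF 3 (1507 CPM). Single markers of this list differed from the sum. Lep was lowest of the shams in female sham 1 (8.77 CPM) and lowest of the AVF libraries in female AVF 2 (4.33 CPM). Pck1 made up 1357 of the 3458 CPM in female sham 1. No correlation of this list with the 9 genes was computed.

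The mean log2 CPM of the 9 brown adipocyte markers was set against each gene within each operation, giving 20 relations. Elovl3, part of that mean, was at or under 3 counts in 2 libraries. Within sham (n = 6), Pearson's r was 0.934 to 0.993 for the 9 genes other than Cpt1a and Spearman's rho 0.829 to 1, with exact permutation p values adjusted over the 20 relations of 0.0159 to 0.0202 for r and 0.0185 to 0.0686 for rho. Within AVF (n = 6), r was 0.756 to 0.903 and rho 0.771 to 1, with adjusted exact permutation p of 0.0159 to 0.0643 for r and 0.0185 to 0.108 for rho. After the 2 libraries farthest from the median marker level were left out, r was 0.660 to 0.985 in sham and 0.732 to 0.957 in AVF. Cpt1a had r of -0.929 in sham (rho -0.829) and 0.0941 in AVF (rho -0.371), with exact permutation p adjusted of 0.0214 (rho 0.0686) and 0.85 (rho 0.497), and r of -0.551 and -0.504 without those 2 libraries. The part of brown or other adipocyte markers in the values of the 9 genes was not tested, and in bulk tissue fewer cells of a type and less RNA per cell cannot be told apart.

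**Figure D3:**
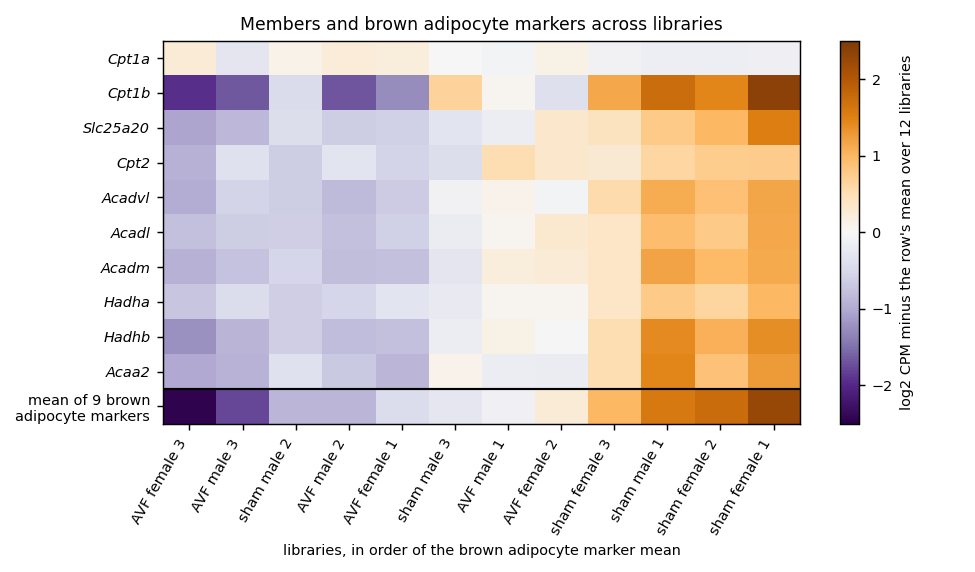
Each row is 1 gene, or in the last row the mean of 9 brown adipocyte markers, and each column 1 library, ordered by that mean; colour is log2 CPM minus the mean of the row over the 12 libraries, from purple (lower) to orange (higher). The rows of the 9 genes other than Cpt1a shift from purple to orange along the marker order, and male sham 2 and male sham 3 stand among the AVF libraries.

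Striated muscle markers, high in female sham 1 and female sham 3, had 0 of 10 tested members called. Separately, the library with most rRNA (female AVF 1) and female sham 1 were left out together, while female sham 3 was kept. Then 2 of the 10 genes were called, Cpt1b with a log2 fold change of -1.98 and Acaa2 with -1.19. Leaving out female AVF 1 or female sham 1 alone also gave 2, so this omission is no test of muscle content. In each of the fibroblast and macrophage lists 3 of 5 markers were called higher in AVF, where 8.63% of all tested genes were. The first fibroblast gene, Pdgfra, was not called (log2 fold change 0.04). Fibroblast sums were 9447 to 15175 CPM in AVF and 4959 to 9476 CPM in sham. Col1a1 alone was at 5391 to 10531 CPM in AVF and 2116 to 5128 CPM in sham. Macrophage sums were 491 to 818 CPM in AVF and 282 to 530 CPM in sham. Among markers of smooth muscle and endothelium 0 of 6 were called in each list, with medians of 0.13 and -0.07 on the log2 scale. Markers of sympathetic neurons had 0 of 5 called, a median log2 fold change of -1.09 and sums of 90.7 to 492 CPM in AVF and 206 to 817 CPM in sham; their defining gene Th was at 9.31 to 44.8 and 17.2 to 77.0 CPM. Hepatocyte markers had 9 of 10 called higher in AVF, with Alb, as given above, high in the OUT libraries only. Pdgfra (fibroblast) was at 156 to 243 CPM in AVF and 143 to 268 CPM in sham, and Adgre1 (macrophage) at 46.3 to 65.0 and 21.3 to 46.1 CPM. The part of these marker lists in the values of the 10 genes was not tested.

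In nAVF against sham, 2 of the 10 genes were called, Cpt1b and Acaa2, both lower, where 1.13% of 22059 tested genes were lower. Cpt1b was at 20.5, 6.20, 8.30 and 5.15 CPM in the 4 nAVF libraries, a log2 fold change of -2.40 (SE 0.54, adjusted p = 0.0280). Acaa2 was at 88.6, 53.0, 54.5 and 49.9 CPM, a log2 fold change of -1.48 (SE 0.34, adjusted p = 0.0292). Male AVF 1, the first value in both series, was the highest of the 4. The median of the 10 genes was -1.12, against -0.04 for all tested genes. Slc25a20 (-1.30, SE 0.36, adjusted p = 0.0632), Hadhb (-1.40, SE 0.41, adjusted p = 0.0783) and Acadvl (-1.12, SE 0.34, adjusted p = 0.0870) missed the threshold, and Cpt1a was at 0.07 (SE 0.11). Without male AVF 3, female AVF 1, female AVF 3, male sham 1 or female sham 2, each alone, 0 of the 10 were called, while 6 were called without male sham 2. Over all genes, calls in those 5 runs numbered 479, 937, 386, 569 and 554, in that order. Without male sham 2 they numbered 900, against 963 with all libraries. The exact test of edgeR and DESeq2 each called 7. Over all genes, in either direction, calls numbered 963 in the main test, 1356 in the exact test and 2331 in DESeq2.

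**Figure D4:**
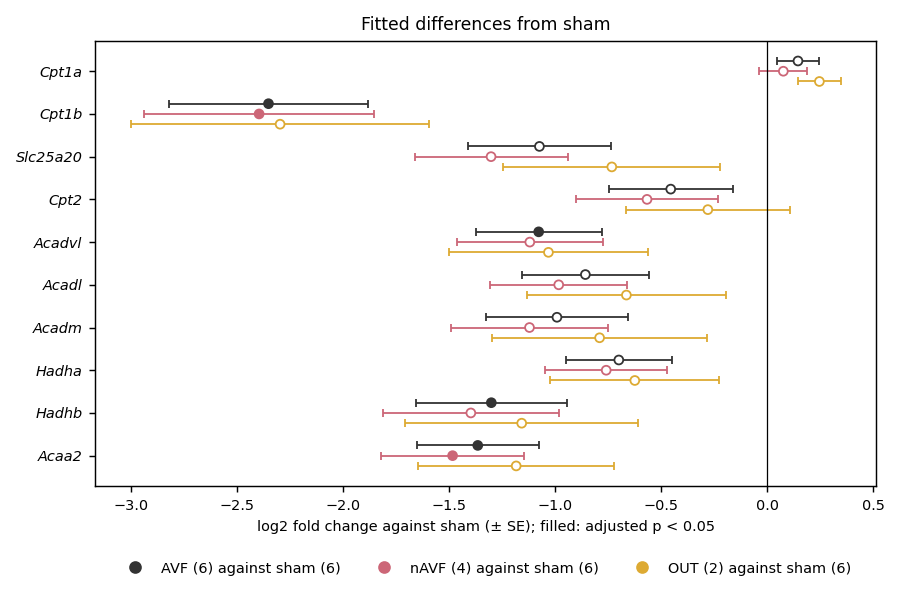
Log2 fold change against sham (horizontal axis, points, with SE as bars) of the 10 genes in AVF (black), nAVF (red) and OUT (yellow), with filled points where the adjusted p value was under 0.05. The 3 comparisons share the same 6 shams; Cpt1b lies at -2.35, -2.40 and -2.30, Cpt1a at 0.14, 0.07 and 0.24, and no OUT point is filled.

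In OUT against sham, 0 of the 10 genes were called, and 0.451% of 22150 tested genes were lower and 3.48% higher. At an unadjusted p under 0.05 there were 3, Cpt1b and Acaa2 with lower and Cpt1a with higher estimates in OUT, where 16.9% of all tested genes were under that value, and the exact test of edgeR and DESeq2 each called 1, Cpt1b. Cpt1b was at 6.13 and 15.2 CPM in male AVF 2 and female AVF 2, a log2 fold change of -2.30 (SE 0.70, adjusted p = 0.123); it was called without male sham 2. Acaa2 was at 62.2 and 87.7 CPM (log2 fold change -1.18, SE 0.46, adjusted p = 0.225). Acadm was at 185 and 381 CPM and Acadl at 189 and 396 CPM, female AVF 2 being the higher in both. The median over the 10 genes was -0.76, and over all tested genes -0.02. Over all genes, in either direction, calls numbered 870 in the main test, 1294 in the exact test and 1798 in DESeq2.

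Between OUT and nAVF, 0 of the 10 genes were called by edgeR's quasi-likelihood test, its exact test or DESeq2. Of 22123 tested genes, 1.59% were called in either direction. Of the 10, 0 had an unadjusted p under 0.05, as 5.17% of all tested genes had. Log2 fold changes, positive where OUT was higher, ran from 0.07 (Acadvl) to 0.55 (Slc25a20). Both OUT values lay within the nAVF range for 7 of the genes, while for Slc25a20, Acadm and Acadl female AVF 2 lay above it. The 95% intervals were wide, from -1.21 to 1.38 for Cpt1b and from -0.13 to 1.24 for Slc25a20. Without female AVF 2, the estimates of 8 genes turned negative, from -0.01 (Slc25a20) to -0.70 (Cpt1b).

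By sex, 0 of the 10 genes differed between female and male AVF, where 0.0316% of tested genes did. Of the 10, 0 had an unadjusted p under 0.05, as 3.3% of all tested genes had. Between female and male sham, 0 of the 10 were called, against 0.0818% of tested genes. At an unadjusted p under 0.05 there was 1, Slc25a20, near the 9.23% of all tested genes under that value. The exact test of edgeR and DESeq2 called 0 in both. Cpt1b was at 44.0, 54.6 and 104 CPM in female sham and at 14.4, 31.2 and 65.7 CPM in male sham, a log2 fold change of 0.85 (SE 0.54, adjusted p = 0.654). Slc25a20 was at 84.4, 126 and 182 CPM in female sham and at 47.5, 50.6 and 109 CPM in male sham (log2 fold change 0.92, SE 0.39, adjusted p = 0.530). In 9 of the 10 genes the estimate was higher in female sham, with a median of 0.57 against 0.01 for all genes, and male sham 1 lay within or above the female range in each of these 9. The effect of AVF did not differ detectably by sex: 0 of the 10 genes and 0% of 22163 tested genes had an interaction of operation and sex (edgeR's quasi-likelihood test). Of the 10, 0 were called by DESeq2 and 0 had an unadjusted p under 0.05, as 4.82% of all tested genes had. For Cpt1b that interaction was -1.08 (SE 0.89, adjusted p = 0.960).

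Other genes of the pathway were counted from named lists. Of all tested genes, 5.13% were called lower in AVF and 8.63% higher, and a single call in lists of this size is near those shares. Of 14 further mitochondrial beta-oxidation genes, 1 was lower in AVF and none was higher, with 14 negative estimates and a median log2 fold change of -0.68. Hadh, the dehydrogenase for short-chain hydroxyacyl groups, was at 122 to 327 CPM in sham and 86.6 to 186 CPM in AVF, a log2 fold change of -0.90 (SE 0.27, adjusted p = 0.0448). That call was kept in 10 of 24 alternatives and lost without any of the 8 libraries on which those of Acadvl and Hadhb rested, while the exact test of edgeR and DESeq2 each called 7 of the 14. Etfa, which takes electrons from the acyl-CoA dehydrogenases, Eci1, an enoyl-CoA isomerase, and Echs1, the short-chain hydratase, missed the threshold at -0.78 (adjusted p = 0.0522), -0.96 (adjusted p = 0.0542) and -0.72 (adjusted p = 0.0602).

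Of 17 genes that supply and activate fatty acids, 1 was lower and none was higher, with a median of -0.27. Fabp3, the fatty acid binding protein of heart muscle, which brown fat also holds, was at 8.01 to 98.1 CPM in sham and 2.01 to 8.10 CPM in AVF (log2 fold change -2.65, SE 0.57, adjusted p = 0.0117). The acyl-CoA synthetases Acsl3 (-0.45, adjusted p = 0.0514), Acsl6 (-1.09, adjusted p = 0.0989) and Acsl5 (-0.33, adjusted p = 0.184) did not pass. Peroxisomal beta-oxidation, which shortens very long chains in another organelle, had 0 of 15 called by edgeR's quasi-likelihood test in AVF against sham and a median of -0.09. Of its genes, Ech1 was at -0.70 (adjusted p = 0.0541), Acaa1a at -0.21 (adjusted p = 0.267) and Acox2 at 2.12 (adjusted p = 0.231). No test compared the lists.

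Of 19 regulators and malonyl-CoA genes, 2 were lower and 1 was higher. Ppara, a nuclear receptor for fatty acids, was at 8.30 to 37.0 CPM in sham and 2.86 to 14.5 CPM in AVF (log2 fold change -1.45, SE 0.39, adjusted p = 0.0290). Sirt3, a mitochondrial deacetylase, had a log2 fold change of -0.95 (SE 0.24, adjusted p = 0.0227), and Rxra, the partner of the PPAR receptors, one of 0.36 (SE 0.10, adjusted p = 0.0323). The call of Rxra was kept in 12 of 24 alternatives, with an adjusted p of 0.106 in the exact test and 0.0918 without both OUT libraries. Ppargc1a, a coactivator of mitochondrial genes, was at -1.76 (SE 0.57, adjusted p = 0.0573).

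Of 10 ketone and PPAR target genes, 3 were lower and 1 was higher. Pdk4, which holds back glucose oxidation by blocking pyruvate dehydrogenase, was at 211 to 1045 CPM in sham and 84.6 to 204 CPM in AVF, with no overlap (log2 fold change -1.71, SE 0.39, adjusted p = 0.0151). Ucp3 (-1.63, SE 0.48, adjusted p = 0.0416) and Acot2, a mitochondrial thioesterase (-0.81, SE 0.23, adjusted p = 0.0375), were lower too, with calls kept in 13 and 9 of 24 alternatives. Ucp2 was higher, at 0.62 (SE 0.15, adjusted p = 0.0185), with 83.9 to 148 CPM in AVF and 65.2 to 109 CPM in sham, and an adjusted p of 0.0622 without both OUT libraries. In OUT against sham, 2 of 15 peroxisomal genes (Acox2 and Crot) and 1 of 10 ketone and PPAR target genes (Bdh1) were called higher. Over all tested genes 3.48% were called higher there and 0.451% lower, so so few calls are no trait of these lists. Against nAVF, 2 of the 15 peroxisomal genes (Acox2 and Acaa1b) were called higher, where 1.59% of all tested genes were called in either direction. The part of hepatocyte RNA in these calls was not tested. Crot, Acaa1b and Bdh1 were named after their values were seen.

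The genes whose log2 CPM over the 12 libraries was most like that of Cpt1b were Cox7a1 (Pearson's r = 0.986), Letmd1 (0.977), Cox8b (0.974) and Ldhb (0.973). Cox7a1 and Cox8b are subunits of cytochrome c oxidase and are also on the list of brown adipocyte markers. With the mean of each operation removed, r was 0.962, 0.944, 0.940 and 0.917. Those most like Acadm, which had the highest mean CPM per kilobase, were Ghitm (0.994), Decr1 (0.994), Hsdl2 (0.989), Cyc1 (0.989) and Uqcrfs1 (0.988), of which Decr1 is an auxiliary beta-oxidation enzyme and Cyc1 and Uqcrfs1 belong to respiratory complex III. Those most like Cpt1a were Gm47445 (0.950), Gm9843 (0.894), Dtx4 (0.888), Gm6767 (0.870) and Fam78a (0.857), none of which was called in AVF against sham. These were the top values of a search over all tested genes, and carry no test.

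Among genes whose spans overlap one of the 10 in the annotation, the readthrough gene Gm44502 lies on the strand of Cpt1b and was at 0 to 0.970 CPM, on average 0.598% of Cpt1b. With its counts added, Cpt1b was still called lower in AVF and in nAVF. Gm15793, a pseudogene inside Acadl, was at 0 to 0.423 CPM, and Dvl2, opposite Acadvl, at 5.01 to 9.59 CPM.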

How the data were processed

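Poly-A RNA-seq libraries of the IVC from 6 AVF and 6 sham mice were analysed. Per the labels and the methods of the study, the authors cleaned the reads (PRINSEQ, Trimmomatic 0.39), mapped them with STAR 2.7.7a to GRCm39, estimated strand-specific expected counts with RSEM 1.3.3, and deposited them unnormalized. Here the expected counts were rounded and scaled by TMM (R 4.3.3, edgeR 4.0.16, limma 3.58.1). The test throughout was the quasi-likelihood F test of edgeR, adjusted by Benjamini-Hochberg across the genes kept (threshold 0.05). Genes kept exceeded 1 CPM in 2 or more libraries for AVF against sham, and 12 counts in total for the other comparisons. SE was the log2 fold change over the root of F. Labels name no litters, so p values measure the spread between mice. Floors cover counting error only. The fit was run on simulated data with less spread between mice than most of the followed genes had in sham. That run does not show the power of the fit for these genes. Alternatives were the exact test, DESeq2 1.42.0, other size factors, no filter, unrounded counts, no rRNA genes, sex as covariate, 1 joint fit, a replicate block and omitted libraries. Ratios and correlations used exact permutation tests (scipy 1.17.1). The ratios, the relation to brown adipocyte markers, the joint omissions of libraries and the addition of readthrough counts were chosen after seeing the data.

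The 10 genes and the lists were chosen with earlier results of these data known. Named were the 10 genes, the 4 genes of each pathway list with the lowest adjusted p in AVF against sham, the sum and first gene of each marker list, the 5 genes most like Cpt1b, Cpt1a and the gene with the highest mean CPM per kilobase, and overlapping genes. Myh6, Prdm16, Elovl3, Lep, Retn, Pck1 and Col1a1 were named after their values were seen. Lengths, coordinates and sequences came from GENCODE on GRCm39. Sequence upstream of Acaa2 and some genes that this rule selects are not reported here.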

Additional observations from a re-analysis of the deposited data

Results flagged for a closer look

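In nAVF, Acadm was at 367 CPM and Acaa2 at 88.6 CPM in male AVF 1, each far above the other 3 nAVF libraries by Dixon's criterion. In the same library 7 of the other 8 genes were also at their highest in nAVF, Cpt1a being the exception. Markers of adipocytes summed to 3912 CPM there, the highest of the 12 libraries, against 2159, 1749 and 1507 CPM in the other nAVF libraries. Plin1 (387 CPM), Plin4 (491 CPM), Cidec (432 CPM) and Cfd (1281 CPM) were each highest in male AVF 1. The other 4 on the list were not: Adipoq (569 CPM), Retn (207 CPM), Pck1 (522 CPM) and Lep (23.7 CPM). Adipoq (573 CPM) and Retn (272 CPM) were highest in female AVF 2, Pck1 (1357 CPM) in female sham 1 and Lep (52.2 CPM) in male AVF 3. The 4 markers highest in male AVF 1 were picked out once their values were known, and the part of adipocyte markers in the result was not tested. Of 30 combinations of gene and group searched, these 2 stood out, near the share of about 1 in 20 that chance alone gives. Acadm and Acaa2 moved together over the AVF libraries (Pearson's r = 0.971, n = 6), so the 2 flags are not independent.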

How the results depend on the processing

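In AVF against sham, the 9 genes other than Cpt1a had negative log2 fold changes under each alternative run. The count of 4 called genes became 8 with the exact test of edgeR, 8 with DESeq2, 7 with the replicate block, 2 without both OUT libraries, 2 without female AVF 1 and female sham 1, and 7 without male sham 2 and both OUT libraries, and ran from 2 to 8 with single libraries left out. In nAVF against sham the count of 2 became 7 with the exact test, 7 with DESeq2 and 7 with the replicate block, and ran from 0 to 6 with libraries left out. In OUT against sham the count of 0 became 1 with the exact test, 1 with DESeq2 and 2 with the replicate block (Cpt1b and Acaa2), and ran from 0 to 1 with libraries left out; a lone OUT library was then assumed to vary like the shams. OUT against nAVF, the sexes and the interaction stayed at 0 of the 10 genes in the alternatives run, and the exact test could not be fitted to the interaction. Apart from the fewer libraries that some alternatives hold, the cause was not tested.

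The replicate block joined mice of the same sex and number. Their deviations from the group means correlated at -0.133 to 0.253 over 6 pairs, above 0.1 in 3, and 2 of 6 AVF libraries correlated best with their own number, so the numbers were not taken to pair mice. Over all genes, calls in AVF against sham numbered 2190, and 3402 with DESeq2; in nAVF 963, and 2331 with DESeq2; in OUT 870, 1798 with DESeq2 and 1974 with the replicate block; between OUT and nAVF 352, and 535 with the exact test; between the sexes 18 in sham (245 exact, 250 DESeq2) and 7 in AVF (22 exact, 59 DESeq2); and for the interaction 0, and 5 with DESeq2.

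With libraries left out, the log2 fold change of Cpt1a in nAVF against sham ran from -0.011 (without female AVF 3) to 0.17. In OUT against nAVF, estimates ran from -0.70 to 0.73 for Cpt1b, -0.080 to 0.65 for Cpt2, -0.011 to 0.96 for Slc25a20, -0.29 to 0.74 for Acadm, -0.32 to 0.74 for Acadl, -0.35 to 0.40 for Acadvl, -0.21 to 0.39 for Hadha and -0.21 to 0.59 for Hadhb, each lowest without female AVF 2. Cpt1b was also negative without male AVF 3 (-0.085) or female AVF 3 (-0.13), and Acadvl without female AVF 3 (-0.06). Counts called lower in the other lists ran from 0 to 8 (mitochondrial), 1 to 3 (supply), 0 to 1 (peroxisomal), 0 to 7 (regulators) and 1 to 4 (ketone and PPAR targets). Of the 9 genes called in those lists, Fabp3 and Pdk4 kept their calls in 24 of 24 alternatives, Ucp2 in 22 (lost without both OUT libraries, alone or with male sham 2), Sirt3 in 21 (lost without male sham 1 or female sham 2, or female AVF 1 and female sham 1 together), Ppara in 19 (lost without male AVF 3, male sham 1, female sham 1 or female sham 2, or that pair together), Ucp3 in 13, Rxra in 12, Hadh in 10 and Acot2 in 9, the last 4 being lost without any of 8, 8, 8 and 10 single libraries. The ratio of Acadm to Acadl ran from an adjusted p of 0.0260 to 0.190 and that of Acadvl to Acadl from 0.0108 to 0.0833. The ratios of Cpt1b to Cpt1a, Hadhb to Hadha and Cpt2 to Slc25a20 kept adjusted p values of 0.00722 to 0.0317 with libraries left out. Shams that differed by up to 7.22 times limit what 6 mice a group can show.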
